A study of Mus musculus with 16 samples.

Results

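Complement is a set of plasma and cell surface proteins that mark and damage microbes and cells, and chondrocytes make several of them themselves. In the classical pathway, C1q binds its target and the proteases C1r and C1s then cleave C4 and C2, which form an enzyme that cleaves C3. Factor B takes the place of C2 in the alternative pathway, the C1 inhibitor and the surface proteins CD55 and CD59 restrain the cascade, and complement activity has been linked to osteoarthritis and inflamed joints. The expression of 9 of these genes, picked by symbol from 55414 gene rows, is described here: the C1 proteases C1ra and C1s1, C4b and C2, Cfb (factor B), C3, the C1 inhibitor Serping1, and the surface inhibitors Cd55 and Cd59a. All 9 were found, and all 9 passed the minimum of 10 counts in each comparison.

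RNA-Seq libraries were made from chondrocyte-enriched cells of the limb epiphyses of newborn mice on a C57BL/6 background, pooled males and females. Notch2tm1.1Ecan cells came from heterozygous mice whose mutant Notch2 allele, present in every cell type of the mouse, codes for a NOTCH2 protein without the PEST domain that marks it for degradation, and control cells came from wild type littermates. For 6 h the cells received PBS as vehicle or 50 ng/ml of TNFα, and each of the 4 groups had 4 libraries. Serum was withdrawn for the TNFα groups only according to the labels and for both treatments according to the paper's legend of its RNA-Seq figure. A difference between TNFα and vehicle may therefore also hold an effect of serum, and these cannot be told apart. Values are CPM (each count relative to its TMM-scaled library size), standard errors are given as SE, and a gene is called when its adjusted p from edgeR's quasi-likelihood test is under 0.05.

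Libraries held 3439726 to 44237300 counts on genes (median 17062419), and the smallest was Notch2tm1.1Ecan TNFα replicate 4. Notch2 itself was read from both alleles together, at 104 to 151 CPM in control and 137 to 164 CPM in Notch2tm1.1Ecan cells with vehicle. The 10 chondrocyte markers (Col2a1, Acan and Sox9 among them) summed to 49372 to 53212 CPM in control and 30893 to 35782 CPM in Notch2tm1.1Ecan cells with vehicle. Markers of 3 other cell types were also present: 6 fibroblast markers summed to 19961 to 28130 CPM over all libraries, 10 macrophage markers to 65.5 to 177 CPM and 5 endothelial markers to 6.52 to 22.2 CPM. In bulk RNA, fewer cells of a type and less RNA per cell cannot be told apart.

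Replicate 4 of both control groups stood apart from its group. Icam1, an adhesion molecule induced by TNFα, was at 34.4, 39.4 and 40.4 CPM in control vehicle replicates 1 to 3 and at 439 CPM in replicate 4. On a scale from 0% (mean of control vehicle replicates 1 to 3) to 100% (mean of control TNFα replicates 1 to 3), this library lay at 15.0% for Icam1, 15.0% for Nfkbia and 15.0% for Tnfaip3. Over the 319 genes that were at least 4-fold higher with TNFα in replicates 1 to 3 and at 10 CPM or more there, its median position was 15.5% (quartiles 13.5 and 18.7%). Control TNFα replicate 4 lay at a median of 81.2% over the same genes (quartiles 76.9 and 86.3%). Notch2tm1.1Ecan TNFα replicate 4 lay at -31.6 on the second principal component of log2 CPM (7.62% of the variance), apart from -11.0 to -9.8 in the other libraries of its group, and without it no call of a member changed. The source of these positions was not tested. Results that changed most without these libraries are given with and without them.

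Among the 9 genes, control vehicle replicate 4 lay between 3.81% (C2) and 43.3% (Cd59a) of the way to TNFα, with C3 at 17.4%, C1s1 at 17.0% and Cfb at 14.4%. Control TNFα replicate 4 lay between 76.5% (Serping1) and 103% (Cfb). Leaving replicate 4 out of both control groups moved the log2 fold change with TNFα most for C3 (from 3.89 to 5.41) and Cfb (from 3.12 to 3.63).

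**Figure D1:**
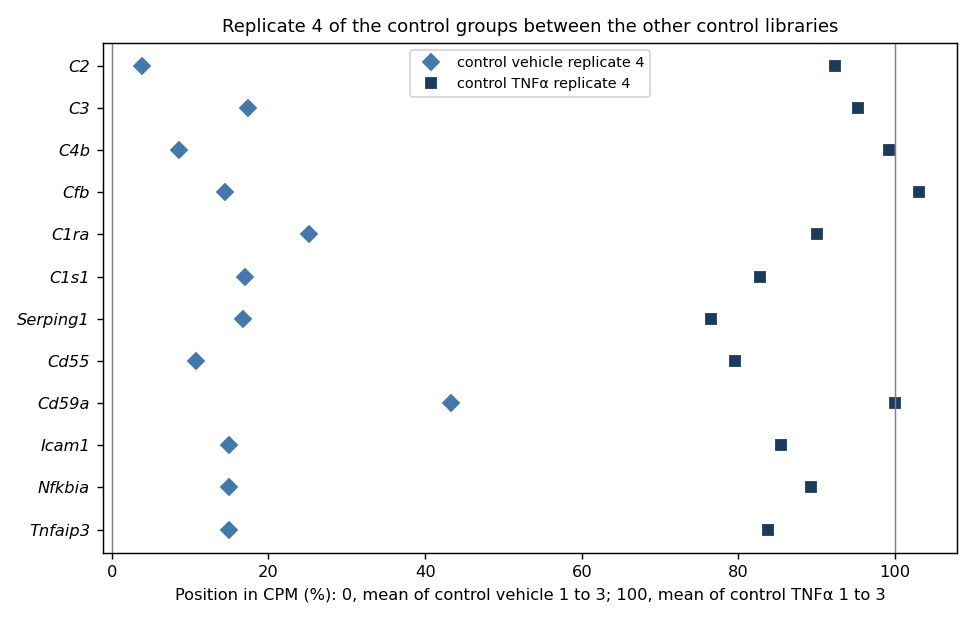
Position of replicate 4 of the control groups for the 9 complement genes and 3 TNFα-induced genes, in percent of the CPM distance from the mean of control vehicle replicates 1 to 3 (0) to the mean of control TNFα replicates 1 to 3 (100). Control vehicle replicate 4 lies right of 0 for every gene shown, at 17.4% for C3 and 15.0% for Icam1, and control TNFα replicate 4 lies at 76.5 to 103% for the 9 genes.

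The members lie on 4 chromosomes of GRCm39. C4b (17:34947354-34962912), Cfb (17:35074852-35081559) and C2 (17:35081578-35117241) are on the minus strand in the major histocompatibility complex. Cfb and C2 are neighbors, and C4a (17:35028069-35042440) lies between C4b and Cfb. C3 (17:57510964-57535155) is on the same chromosome. C1ra (6:124489364-124500402) is next to C1s1 (6:124507297-124559389). Serping1 (2:84595705-84620873) and Cd59a (2:103926132-103947029) share chromosome 2, and Cd55 is at 1:130366469-130390926. The annotation has a read-through gene, Gm20547, that joins C2 and Cfb, with 0 counts in every library. It shares 65.7% of the exonic bases of Cfb and 38.4% of those of C2. On the opposite strand, Nelfe (146 to 1978 counts) shares 49.8% of those of Cfb and Zbtb12 (80 to 548 counts) 4.4% of those of C2. Whether opposite-strand genes were kept apart depends on the strand setting of the counting, which is not given. Reads on shared exons can be left uncounted as ambiguous, so that the levels of Cfb and C2 may be too low. Near copies of members were low, with C4a at group means of 0.575 to 0.961 CPM and C1s2 at 0.0661 to 0.374 CPM, and reads that match a member and its copy equally are uncertain.

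The bases upstream of the start site of 3 genes are shown because of their contrasting responses to TNFα: C3 rose most, Cd55 rose and Cd59a was the one that fell. They are the 250 bases before the start of transcription in RefSeq on GRCm38.p6, C3 at chr17:57228137-57228386 (minus strand), Cd55 at chr1:130462745-130462994 (minus strand) and Cd59a at chr2:104095551-104095800 (plus strand). Capitals mark a match to the IRF motif, which is GAAA repeated after any 2 bases.
C3: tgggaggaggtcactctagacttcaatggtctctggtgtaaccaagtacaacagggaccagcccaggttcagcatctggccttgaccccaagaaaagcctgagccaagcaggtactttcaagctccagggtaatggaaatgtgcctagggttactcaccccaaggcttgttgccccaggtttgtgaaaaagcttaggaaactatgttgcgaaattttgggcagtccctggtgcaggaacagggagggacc
Cd55: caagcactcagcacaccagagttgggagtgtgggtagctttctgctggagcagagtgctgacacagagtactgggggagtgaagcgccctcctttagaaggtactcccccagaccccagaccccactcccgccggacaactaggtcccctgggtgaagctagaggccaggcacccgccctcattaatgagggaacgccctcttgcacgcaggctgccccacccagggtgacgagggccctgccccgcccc
Cd59a: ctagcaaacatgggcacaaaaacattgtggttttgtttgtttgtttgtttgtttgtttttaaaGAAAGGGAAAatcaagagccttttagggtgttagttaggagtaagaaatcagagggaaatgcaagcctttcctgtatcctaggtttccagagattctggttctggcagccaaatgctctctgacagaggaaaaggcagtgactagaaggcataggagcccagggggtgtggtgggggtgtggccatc

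A promoter was on hand for 5 of the 9 members (C3, C1ra, C1s1, Cd55 and Cd59a). From 250 bases before to 50 bases after the start, both strands were searched for 4 motifs of transcription factors. The NF-κB motif was in none of the 5 and in 8.46% of 32851 mouse promoters of that length. The IRF motif was in Cd59a and in 3.44% of all promoters. The GAS motif TTCNNNGAA, which reads the same on both strands, was in C1ra as TTCCCTGAA, 32 to 40 bases past the start, and in 8.30% of all promoters. The RBPJ motif TGGGAA was in C1ra and at the second of the start sites of C1s1, and in 25.6% of all promoters. These are matches of letters in a short window and show neither binding nor its absence.

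With TNFα, 8 of the 9 complement genes rose and 1, Cd59a, fell, in control and in Notch2tm1.1Ecan cells alike. C3 rose most, to 998 to 1078 CPM, and Cfb and C2 rose from under 1.5 CPM. Among all genes, 23.3% were called higher and 20.9% lower with TNFα in control cells, and 22.6 and 21.9% in Notch2tm1.1Ecan cells. Of the 9 members, 6 in control and 7 in Notch2tm1.1Ecan cells were called at least 2-fold higher, where 8.47 and 9.20% of all genes were. The median log2 fold change of the 9 was 1.40 in control and 1.9 in Notch2tm1.1Ecan cells, with medians over all genes tested of 0.039 and 0.026.

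**Figure D2:**
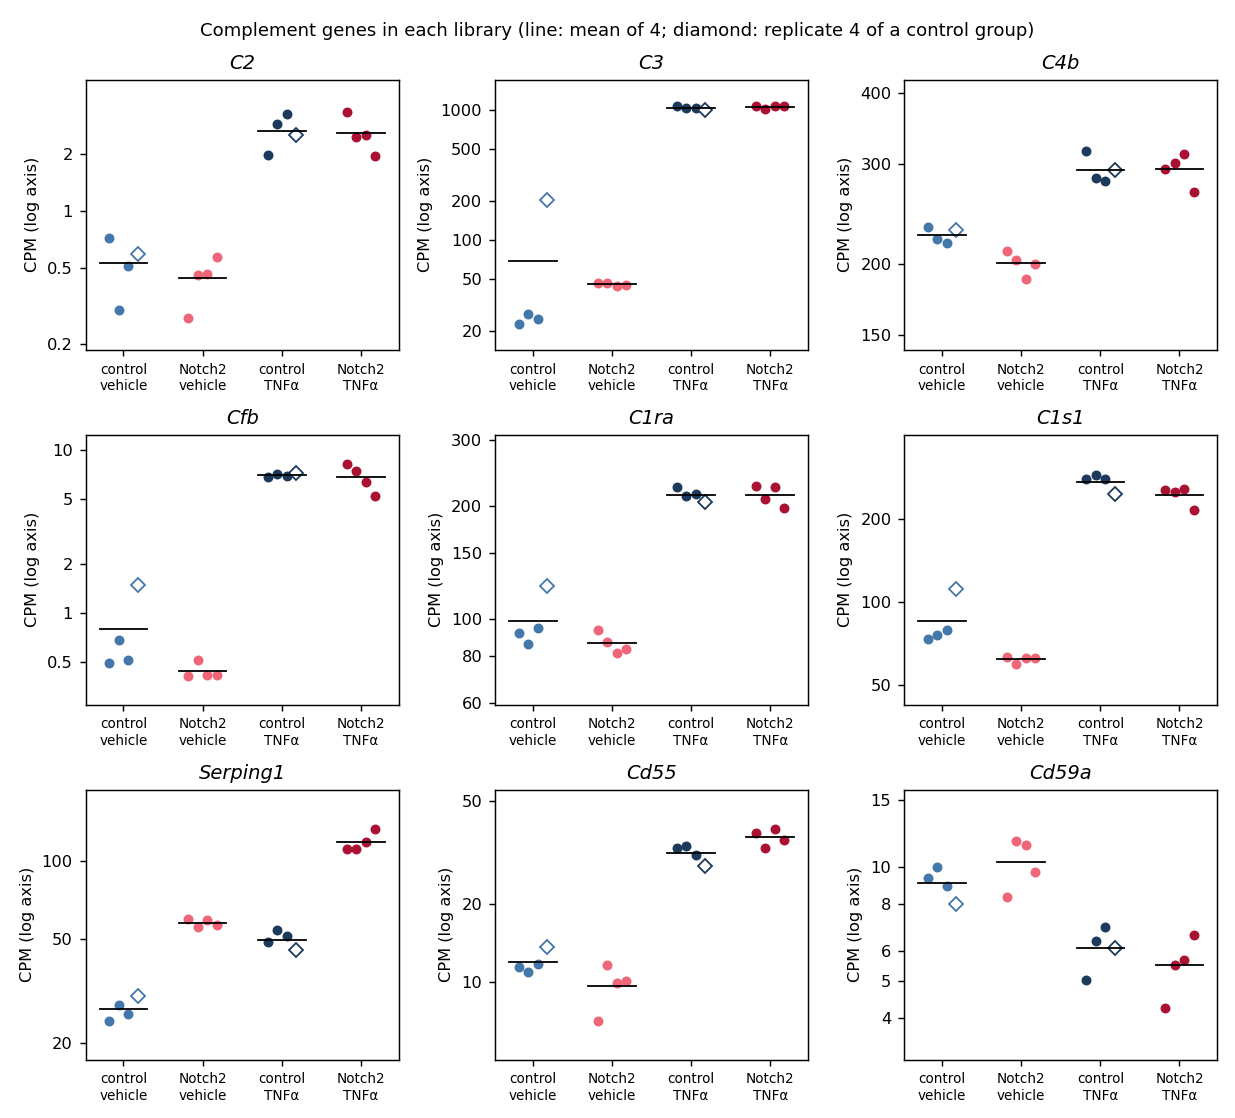
CPM (log axes, 1 panel for each gene with its own scale) of the 9 complement genes in the 16 libraries by group, "Notch2" standing for Notch2tm1.1Ecan, with lines at the group means and open diamonds for replicate 4 of the control groups. The TNFα libraries lie above the vehicle libraries of the same genotype for 8 genes and below them for Cd59a, and Serping1 alone shows both Notch2tm1.1Ecan groups above the control groups of the same treatment.

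C1ra and C1s1 code for the proteases of the C1 complex, and both were already well expressed with vehicle. C1ra was at 91.9, 86.3, 94.7 and 123 CPM in control cells with vehicle and at 224, 213, 215 and 205 CPM with TNFα. The groups did not overlap, and the highest vehicle library was replicate 4. The log2 fold change was 1.12 (SE 0.113, adjusted p = 6.26e-05) in control cells and 1.32 (SE 0.0647, adjusted p = 1.12e-15) in Notch2tm1.1Ecan cells. C1s1, whose product cleaves C4 and C2, was at 73.4, 75.8, 79.2 and 111 CPM with vehicle and at 279, 288, 279 and 247 CPM with TNFα in control cells. In Notch2tm1.1Ecan cells it was at 63.2, 59.4, 62.5 and 62.4 CPM with vehicle and at 256, 251, 258 and 216 CPM with TNFα. Its log2 fold change was 1.69 (SE 0.157, adjusted p = 0.000135) in control cells and 1.99 (SE 0.0654, adjusted p = 1.46e-19) in Notch2tm1.1Ecan cells, and the lowest TNFα library was replicate 4 in both genotypes.

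C4b and C2, the substrates of C1s, differed widely in level and in response. C4b was at 218 to 232 CPM in control and 188 to 211 CPM in Notch2tm1.1Ecan cells with vehicle, and at 280 to 316 and 268 to 311 CPM with TNFα. It rose least of the 8, 1.31-fold in control cells (log2 fold change 0.39, SE 0.0510, adjusted p = 1.60e-06) and 1.47-fold in Notch2tm1.1Ecan cells (log2 fold change 0.56, SE 0.0613, adjusted p = 1.91e-08). Although small, this difference left no overlap between vehicle and TNFα libraries. C2 was near the limit of the libraries, with 4 to 25 counts in each vehicle library and 7 to 55 in each TNFα library. It was at 0.719, 0.305, 0.515 and 0.595 CPM with vehicle and at 1.97, 2.85, 3.21 and 2.51 CPM with TNFα in control cells. C2 rose 4.82-fold in control cells (log2 fold change 2.27, SE 0.292, adjusted p = 1.22e-06) and 5.55-fold in Notch2tm1.1Ecan cells (log2 fold change 2.47, SE 0.295, adjusted p = 8.06e-08).

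Cfb, the protease of the alternative pathway enzyme, was as low as C2 with vehicle. It was at 0.497, 0.685, 0.515 and 1.49 CPM in control and at 0.413, 0.513, 0.415 and 0.414 CPM in Notch2tm1.1Ecan cells. With TNFα it was at 6.86, 7.08, 6.94 and 7.16 CPM in control and at 8.21, 7.37, 6.38 and 5.24 CPM in Notch2tm1.1Ecan cells. All TNFα libraries lay above all vehicle libraries, and replicate 4 was the high one among the control vehicle libraries. The log2 fold change was 3.12 in control cells (SE 0.241, adjusted p = 8.92e-10) and 3.63 without replicate 4 (SE 0.244, adjusted p = 4.34e-13). In Notch2tm1.1Ecan cells it was 3.99 (SE 0.229, adjusted p = 3.31e-14).

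C3, on which the pathways converge, was at 22.7, 27.0, 24.8 and 203 CPM in control cells with vehicle. In Notch2tm1.1Ecan cells with vehicle it was at 46.6, 47.3, 44.5 and 45.2 CPM. With TNFα it was at 1076, 1035, 1029 and 998 CPM in control and at 1067, 1018, 1078 and 1063 CPM in Notch2tm1.1Ecan cells. The TNFα groups overlapped each other and lay far above every vehicle library, and with vehicle 3 control libraries lay below and 1 above all Notch2tm1.1Ecan libraries. The log2 fold change with TNFα was 3.89 in control cells (SE 0.917, adjusted p = 0.0141). Without replicate 4 of both treatments it was 5.41 (SE 0.0533, adjusted p = 1.35e-31). In Notch2tm1.1Ecan cells it was 4.53 (SE 0.0641, adjusted p = 2.02e-27), a 23.1-fold rise. C3 held 4.87 to 5.86% of the counts of the 9 genes in control vehicle replicates 1 to 3, 28.2% in replicate 4, 9.51 to 9.91% in Notch2tm1.1Ecan vehicle libraries and 52.5 to 55.2% in the TNFα libraries of both genotypes. The 9 genes together held 0.0448 to 0.0701% of all counts with vehicle and 0.182 to 0.204% with TNFα.

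**Figure D3:**
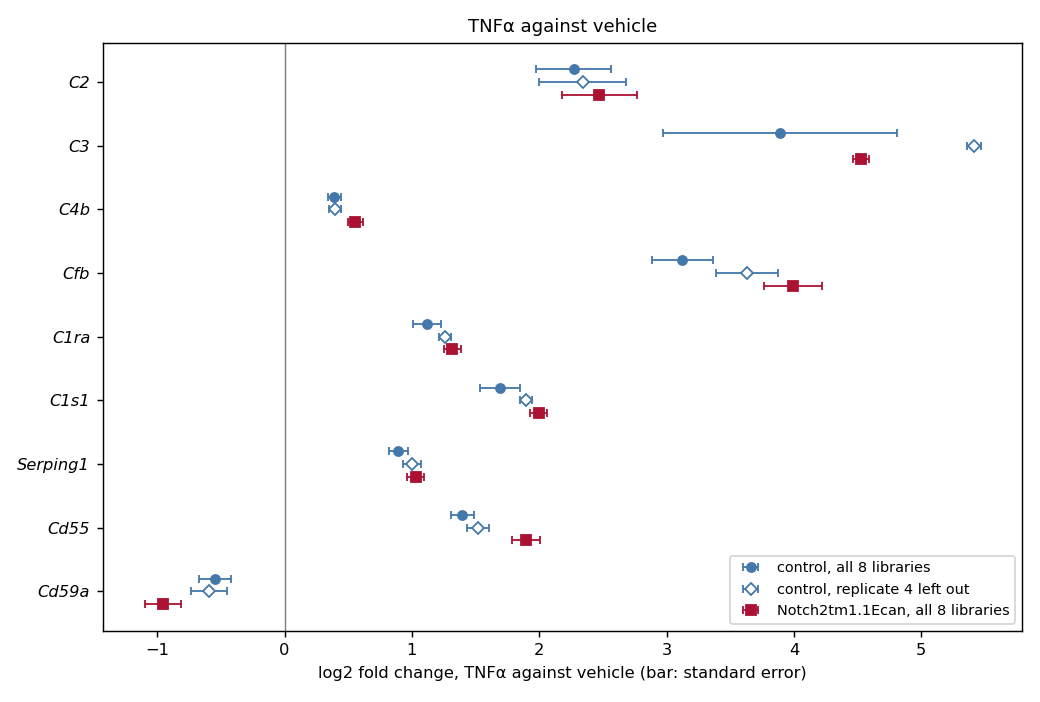
Log2 fold change of each gene with TNFα against vehicle, with bars for the standard error, in control cells (circles), in control cells without replicate 4 of both treatments (open diamonds) and in Notch2tm1.1Ecan cells (squares). The 8 genes right of 0 run from C4b at 0.39 to C3 at 5.41 without replicate 4, Cd59a lies left of 0, and the bar of C3 in control cells shrinks from 0.917 to 0.0533 without replicate 4.

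The inhibitors did not move as a block. Serping1, whose product inactivates C1r and C1s, was at 24.3, 27.9, 25.7 and 30.2 CPM with vehicle and at 48.8, 54.2, 51.4 and 45.5 CPM with TNFα in control cells. In Notch2tm1.1Ecan cells it was at 60.1, 56.0, 59.2 and 56.7 CPM with vehicle and at 112, 112, 119 and 134 CPM with TNFα. The 4 groups did not overlap, and TNFα-treated control cells stayed below Notch2tm1.1Ecan cells with vehicle. With TNFα it rose 1.86-fold in control cells (log2 fold change 0.89, SE 0.0760, adjusted p = 3.52e-09) and 2.04-fold in Notch2tm1.1Ecan cells (log2 fold change 1.03, SE 0.0673, adjusted p = 6.03e-13).

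Cd55, which speeds the decay of the enzymes that cleave C3, was at 11.4, 11.0, 11.8 and 13.6 CPM with vehicle and at 33.0, 33.5, 31.0 and 28.2 CPM with TNFα in control cells. It rose 2.63-fold there (log2 fold change 1.40, SE 0.0895, adjusted p = 8.38e-11). In Notch2tm1.1Ecan cells it went from 7.10 to 11.6 CPM with vehicle to 33.0 to 39.2 CPM with TNFα, a 3.72-fold rise (log2 1.9, SE 0.107, adjusted p = 1.5e-13). Cd59a, which blocks the final membrane attack complex, was at 9.34, 9.97, 8.88 and 7.98 CPM with vehicle and at 5.04, 6.37, 6.94 and 6.12 CPM with TNFα in control cells. Every TNFα library lay below every vehicle library of its genotype. Cd59a fell by 0.54 on the log2 scale in control cells (SE 0.127, adjusted p = 0.00122) and by 0.95 in Notch2tm1.1Ecan cells (SE 0.144, adjusted p = 3.45e-06).

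Levels between genes were compared as CPM per kilobase of exon. In control vehicle replicates 1 to 3 the order was C4b (36.9), C1ra (28.5), C1s1 (21.9), Serping1 (8.55), C3 (4.78), Cd55 (1.92), Cd59a (1.5), Cfb (0.165) and C2 (0.119). Neighbors in this order did not overlap over the libraries, except Cfb and C2. With replicate 4 included, the mean of C3 was 13.4 ± 17.2 CPM per kilobase (SD, n = 4) and it stood above Serping1, with overlapping ranges. In Notch2tm1.1Ecan cells with vehicle, Serping1 (19.1) stood above C1s1 (17.8) without overlap, C3 was at 8.85, and Cd55 overlapped with Cd59a, as did Cfb with C2. When the full CPM of C1s1 was divided by only its exonic bases that no other counted gene shares, C1s1 came to 21.4, above Serping1. The bases taken out are shared with Gm16567 on the opposite strand, which had 0 to 6 counts. With TNFα, C3 headed the order at 200 ± 6.23 CPM per kilobase in control and 204 ± 5.09 in Notch2tm1.1Ecan cells (SD, n = 4). C1s1 (78.7 and 70.6), C1ra (67.1 and 67.2), C4b (48.3 and 48.4) and Serping1 (16.5 and 39.2) followed, with overlap between C1s1 and C1ra in Notch2tm1.1Ecan cells. Cd55 was at 5.32 and 6.14, Cfb at 2.05 and 1.99, Cd59a at 0.973 and 0.876 and C2 at 0.611 and 0.592, and Cd59a overlapped with C2 in Notch2tm1.1Ecan cells. The full CPM was also divided by only the exonic bases that no counted gene on either strand shares. Cfb then came to 9.42 and 9.14 with TNFα and stood above Cd55, with overlap in Notch2tm1.1Ecan cells. C2 (1.07 and 1.03) stood above Cd59a, with overlap in both genotypes. With only same-strand overlaps taken out, Cfb was at 5.97 and 5.79, above Cd55 in control and below it in Notch2tm1.1Ecan cells. These places therefore depend on the length used, and counts on shared bases were not removed.

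Between genotypes, Serping1 was the only one of the 9 members called under both treatments. With vehicle it was 2.15-fold higher in Notch2tm1.1Ecan cells (log2 fold change 1.11, SE 0.0703, 95% interval 0.96 to 1.25, adjusted p = 1.25e-10), in 4 of 4 libraries. With TNFα it was 2.38-fold higher (log2 fold change 1.25, SE 0.0719, 95% interval 1.1 to 1.40, adjusted p = 1.64e-12). Of all genes, 6.19% were called higher and 4.35% lower in Notch2tm1.1Ecan cells with vehicle, and 5.63% and 4.31% with TNFα. The macrophage markers moved with the genotype too, summing to 65.5 to 70.7 CPM in control and 118 to 138 CPM in Notch2tm1.1Ecan cells with vehicle, and 8 of 10 were called higher. The endothelial markers summed to 6.52 to 8.75 and 15.2 to 19.4 CPM, with 3 of 5 called higher, and the chondrocyte markers were called lower in 10 of 10. With vehicle, Tek made up most of the endothelial sums (means of 5.68 CPM in control and 12.4 CPM in Notch2tm1.1Ecan cells). Lyz2 was the highest macrophage marker (38.9 and 74.2 CPM). The fibroblast markers summed to 20030 to 21981 CPM in control and 23506 to 25442 CPM in Notch2tm1.1Ecan cells with vehicle, with 3 of 6 called higher and 2 lower, and to 19961 to 21820 and 23688 to 28130 CPM with TNFα, with 4 called higher and 1 lower. The defining macrophage marker Adgre1 was at a mean of 3.13 CPM in control and 8.06 CPM in Notch2tm1.1Ecan cells with vehicle, and none of these lists was at 0. Their part in the level of Serping1 was not tested.

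With vehicle, C4b was the only other member called, at 200 ± 9.46 CPM (SD, n = 4) in Notch2tm1.1Ecan and 225 ± 6.63 CPM (SD, n = 4) in control cells, or 0.895-fold. Its log2 fold change was -0.16 (SE 0.0501, adjusted p = 0.0428), and the adjusted p rose above 0.05 when any of 6 single libraries was left out, to at most 0.130. C1s1 was lower in every Notch2tm1.1Ecan library than in every control library, at a log2 fold change of -0.45 (SE 0.134, adjusted p = 0.0811). Without control replicate 4 its log2 fold change was -0.30 (SE 0.0557, adjusted p = 0.000508), which passes the threshold. Over 16 alternatives to the main fit, C1s1 was called in 8, and C4b lost its call in 8.

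The genotype difference of C3 with vehicle turned on a single library. Over all 8 libraries the log2 fold change was -0.60 (SE 0.825, 95% interval -2.60 to 1.40, adjusted p = 0.770). Without control replicate 4 it was 0.89 (SE 0.0713, adjusted p = 4.12e-09), from 45.9 ± 1.28 CPM (SD, n = 4) in Notch2tm1.1Ecan cells against 24.8 ± 2.15 CPM (SD, n = 3) in control cells. Cfb (log2 fold change -0.86, 95% interval -1.70 to -0.010, adjusted p = 0.222), Cd55 (-0.29, -0.55 to -0.031, adjusted p = 0.166), C1ra (-0.19, -0.43 to 0.045, adjusted p = 0.349), C2 (-0.22, -1.05 to 0.62, adjusted p = 0.83) and Cd59a (0.20, -0.052 to 0.44, adjusted p = 0.377) did not pass. With a single library left out, Cfb ranged from -1.05 to -0.35. Its mean in control cells was 0.796 CPM with and 0.566 CPM without replicate 4, against 0.439 CPM in Notch2tm1.1Ecan cells.

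With TNFα, Serping1 was the only member called between genotypes. The 95% intervals of the log2 fold change were narrow for C3 (0.04, -0.076 to 0.17), C1ra (0.02, -0.11 to 0.14) and C4b (0.02, -0.11 to 0.15). They were wider for Cfb (0.02, -0.27 to 0.30), C2 (0.01, -0.44 to 0.46) and Cd59a (-0.20, -0.53 to 0.12). Cd55 was higher by 0.22 (95% interval 0.061 to 0.39, adjusted p = 0.0766) and C1s1 was at -0.14 (95% interval -0.27 to -0.0064, adjusted p = 0.207). Without control replicate 4, C1s1 was at -0.20 (adjusted p = 0.0280) and Cd55 at 0.16 (adjusted p = 0.240). The macrophage markers summed to 75.4 to 91.2 CPM in control and 158 to 177 CPM in Notch2tm1.1Ecan cells with TNFα.

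**Figure D4:**
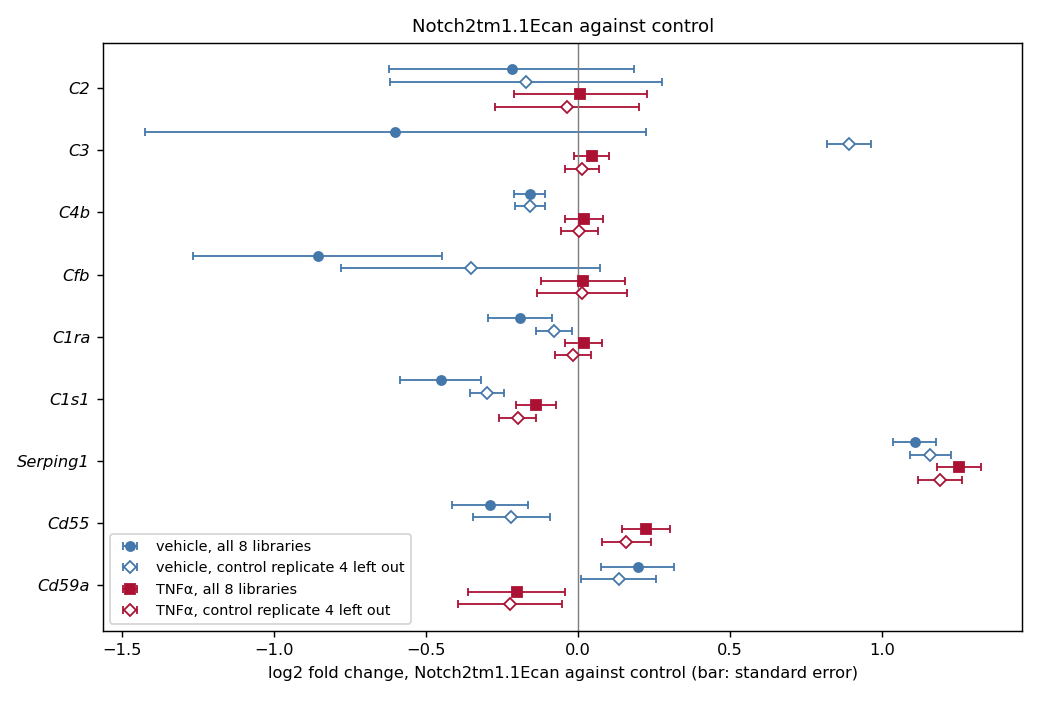
Log2 fold change of each gene in Notch2tm1.1Ecan against control cells, with bars for the standard error, with vehicle (circles) and TNFα (squares), and for both without control replicate 4 (open diamonds). Serping1 lies at 1.11 to 1.25 in all 4 fits, and C3 with vehicle moves from -0.60 to 0.89 when control replicate 4 is left out.

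Whether the response to TNFα differed between genotypes was tested as an interaction over all 16 libraries. None of the 9 genes was called, against 0.474% of all genes. Of the 9, 4 had an unadjusted p under 0.05, a share that was not computed for all genes. These were Cd55 (0.50, 0.21 to 0.79, adjusted p = 0.124), Cfb (0.87, 0.11 to 1.64, adjusted p = 0.467), C4b (0.17, 0.0038 to 0.34, adjusted p = 0.559) and Cd59a (-0.41, -0.80 to -0.0075, adjusted p = 0.562). With a single library left out, the Cfb interaction ranged from 0.34 to 1.06. Cd55 then ranged from 0.41 to 0.57, C4b from 0.13 to 0.21 and Cd59a from -0.48 to -0.29. Control vehicle replicate 4, at 1.49 CPM, was the highest vehicle library for Cfb. DESeq2 called 0 as well, but gave C3 and C2 no adjusted p, so that it could not have called these. For C3 the interaction was 0.63 (SE 0.811, adjusted p = 0.890) over all libraries and -0.88 (SE 0.0821, adjusted p = 3.09e-09) without replicate 4 of both control groups. The genotype difference of C3 was then 0.89 with vehicle and 0.01 with TNFα on the log2 scale. For Serping1 it was 0.14 (95% interval -0.061 to 0.34, adjusted p = 0.741).

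Another 47 complement genes had a row in the count files, and 31 to 34 of them passed the minimum count in a comparison. With TNFα, 4 were called higher and 2 lower of 31 in control cells, and 7 higher and 3 lower of 32 in Notch2tm1.1Ecan cells, with median log2 fold changes of 0.264 and 0.271. Over all genes, 23.3% were called higher and 20.9% lower in control cells, and 22.6% and 21.9% in Notch2tm1.1Ecan cells, so that no larger share of this list was called in either direction. Clu, which binds the terminal complex, rose from 143 to 241 CPM by group mean in control cells (log2 fold change 0.76, SE 0.0485, adjusted p = 8.60e-11). C1rl, a relative of C1r, rose by 0.47 (SE 0.0699, adjusted p = 7.29e-06), and Cr1l, a surface regulator of C3 also known as Crry, by 0.42 (SE 0.0548, adjusted p = 1.69e-06). Cd46, another surface regulator, rose in Notch2tm1.1Ecan cells by 1.26 (SE 0.335, adjusted p = 0.00283), and so did Csmd1 (0.80, adjusted p = 0.00741) and C1rl (0.77, adjusted p = 6.63e-09). Cr1l rose by 0.32 there (adjusted p = 0.000885). By group mean, Cd46 went from 0.613 to 1.21 CPM with TNFα in control cells. Without replicate 4 of both control groups it went from 0.480 to 1.46 CPM. Cd46 was low throughout, at 4 to 34 counts in the Notch2tm1.1Ecan vehicle libraries.

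Masp1, a protease of the lectin pathway, fell from 122 to 46.5 CPM by group mean in control cells, or by 1.39 on the log2 scale (SE 0.0681, adjusted p = 2.06e-11), and in Notch2tm1.1Ecan cells by 1.67 (adjusted p = 3.08e-17). Cfd (factor D), which cleaves factor B, fell by 1.04 in control cells (SE 0.133, adjusted p = 8.33e-06) and by 0.85 in Notch2tm1.1Ecan cells (adjusted p = 3.64e-08). Of 7 terminal pathway genes 2 could be tested (Hc and C8g), and neither was called in any comparison.

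Between genotypes, 11 of the other complement genes were called higher and 1 lower in Notch2tm1.1Ecan cells of 31 with vehicle, where 6.19% of all genes were called higher and 4.35% lower. With TNFα 11 were called higher and 1 lower of 32, where 5.63% and 4.31% of all genes were. The median log2 fold changes were 0.331 and 0.613. Cfi (factor I, which inactivates C3b) was higher by 1.82 with vehicle (SE 0.441, adjusted p = 0.00721) and 2.18 with TNFα (SE 0.425, adjusted p = 0.000680), at group means of 0.268 to 1.22 CPM. Chains of C1q were higher as well: C1qa by 1.64 (adjusted p = 1.63e-07) and C1qc by 1.59 (adjusted p = 1.04e-07) with vehicle, and C1qb by 1.82 (adjusted p = 3.35e-09) and C1qa by 1.43 (adjusted p = 4.60e-05) with TNFα. Genes of C1q are known to be expressed by macrophages, and 4 of 7 receptors tested, C3ar1, C5ar1, Itgb2 and Cd93, were called higher under both treatments. C5ar1 and Itgam are on the macrophage marker list too. The macrophage marker sums given above were higher in the same libraries, and their part was not tested. C1rl was the gene called lower with vehicle (-0.42, adjusted p = 0.000736) and Cr1l the one called lower with TNFα (-0.24, adjusted p = 0.0226). Clu was higher by 0.17 with vehicle (adjusted p = 0.0296), and Cfp (properdin, which stabilizes the alternative pathway enzyme) by 0.60 with vehicle (adjusted p = 0.0464) and 0.73 with TNFα (adjusted p = 0.0370). Without control replicate 4, Cfp with TNFα did not pass (adjusted p = 0.0943). None of the 34 was called for the interaction by edgeR, with 3 at an unadjusted p under 0.05, a share not computed for all genes.

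**Figure D5:**
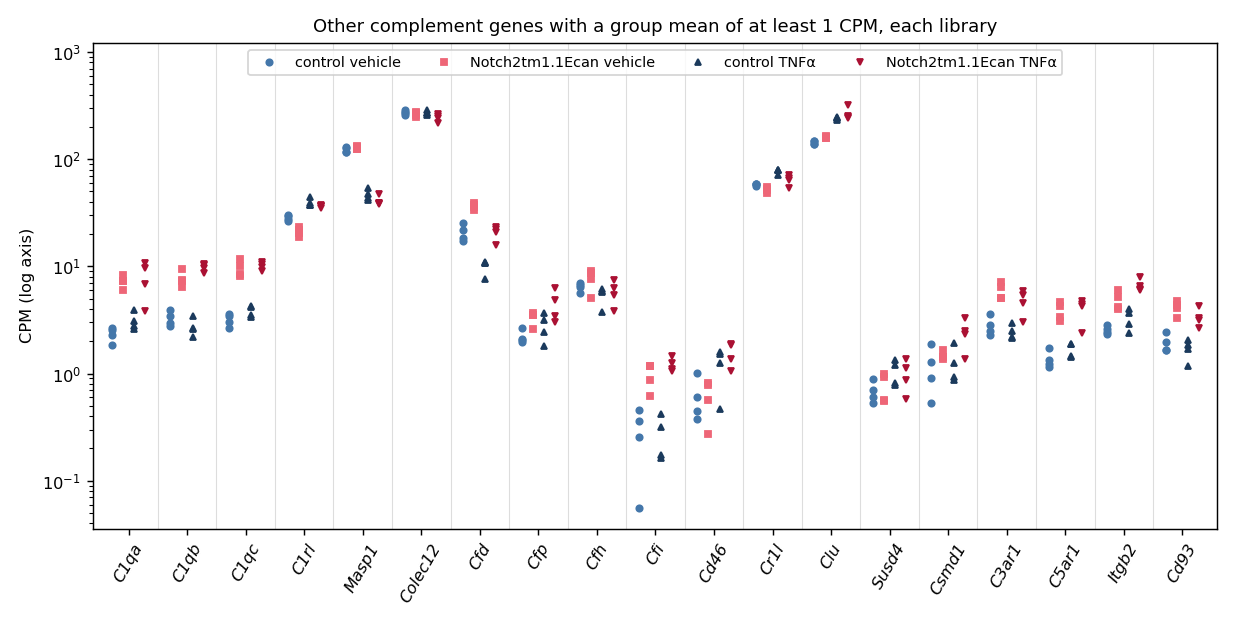
CPM in each library (log axis) of the 19 other complement genes with a group mean of at least 1 CPM, by group. Masp1 and Cfd are lower and Clu and C1rl higher in the TNFα libraries of both genotypes, and C1qb, C1qc and Cfi lie higher in Notch2tm1.1Ecan than in control libraries of the same treatment.

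The genes whose log2 CPM followed each member most closely over the 16 libraries were found among 13431 genes with a mean of at least 1 CPM. For C3 they were Psmb8, Slfn2 and Parp14, each with Pearson's r of 0.997. For Cfb they were Psme2, Relb and Stx11 (0.995 to 0.996), for C1ra Nub1, Relb and Psme2 (0.996 to 0.997), and for C1s1 Tor3a, Il1rl1 and Tapbpl (0.997 to 0.998). For C2 they were Psmd10, Tspo and Gm10432 (0.979 to 0.983), for C4b Ift122, Cul9 and Cgnl1 (0.976 to 0.982), and for Cd55 Sdk1, Gsap and Tent5a (0.992 to 0.993). Serping1 was followed by Ecm1, Syt13 and Col18a1 (0.976 to 0.982), and Cd59a by Ergic2, Slc25a24 and Nanos1 (0.939 to 0.946). These are descriptions over libraries that fall into vehicle and TNFα clusters, which any gene that responds to TNFα shares. Among the members, r lay between 0.91 and 0.99 for the 21 pairs of C2, C3, C4b, Cfb, C1ra, C1s1 and Cd55, between 0.46 and 0.63 for Serping1 with these, and below 0 for Cd59a with every other member.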

How the data were processed

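The authors prepared stranded mRNA libraries, sequenced them as paired reads in one pool, and deposited whole-number htseq-count counts per Ensembl gene for each of 16 libraries. The paper names Trimmomatic 0.39, HISAT2 2.2.1, htseq-count 0.11.0 and GRCm39, whereas the submitters' processing notes name HISAT2 2.1.0, SAMtools 1.9 and GRCm38. The strand setting of the counting is not given in the sources used here. The 5 entries that name no gene (8.81 to 12.14% of a library) were left out.

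Genes with at least 10 counts summed over the compared libraries were fitted with edgeR 4.0.16 (TMM, quasi-likelihood test with robust dispersions, no covariate, Benjamini-Hochberg over all genes tested) in R 4.3.3 with limma 3.58.1, on the 8 libraries of 2 groups or on all 16 for the interaction. The threshold was an adjusted p under 0.05. Standard errors and 95% intervals come from the fold change and the F statistic. Median log2 fold changes of a list are over its genes tested. Counts of same-group libraries differed beyond sampling noise (chi-square per degree of freedom 2.08 to 14.61), and the labels call them biological replicates. How cultures or animals were divided among them is not given in the sources used here, and p-values measure the spread between these libraries. Counting limits cover counting error only. The fits were tested on simulated counts with a fixed dispersion, no shifted library and changes only in genes with high counts. This test does not cover genes as low as C2 and Cfb or fits that hold control replicate 4.

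Alternatives were DESeq2 1.42.0, RLE scaling, filterByExpr, a minimum of 1 count, an adjusted p under 0.1, at least 2-fold, the replicate number as a block, 1 fit of all 16 libraries, each library left out, and replicate 4 of both control groups left out. Named genes were all members, in each comparison up to 3 other complement genes with the largest and 3 with the smallest log2 fold change among those called (leaving out genes at 3 counts or fewer in every library of a group), up to 3 genes of a marker list, the 3 genes most like each member, Notch2, and Icam1 for libraries that stood apart. Nfkbia, Tnfaip3, Gm20547, C4a, C1s2 and the receptor and terminal genes named with counts were added after their values were seen. The members and lists were chosen with earlier results of these data known. Names, positions and lengths are from GENCODE M39, and 665 identifiers are not in it. Plots used matplotlib 3.10.9, and other steps Python 3.11.15 with numpy 2.4.6 and pandas 2.3.3.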

Additional observations from a re-analysis of the deposited data

Results flagged for a closer look

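In each group of 4 libraries, the highest and the lowest were compared with the nearest of the others by Dixon's ratio, over 36 combinations of gene and group, and 4 exceeded the 95% critical value. Chance gives about 1 in 20. C3 in control vehicle replicate 4 was at 203 CPM, with 97.6% of the group's range between it and the next library, and C1s1 in the same library was at 111 CPM. C1s1 in Notch2tm1.1Ecan TNFα replicate 4, the smallest library, was at 216 CPM, below 251 to 258 CPM in the other 3. Cfb in Notch2tm1.1Ecan vehicle replicate 2 was at 0.513 CPM, which rests on 10 counts.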

How the results depend on the processing

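Every member kept its direction with TNFα in both genotypes under all alternatives. Calls with TNFα were lost with a requirement of at least 2-fold (C4b and Cd59a in both genotypes, Serping1 in control cells), and DESeq2 gave C3 in control cells no adjusted p. Serping1 between genotypes was called under all alternatives, at 1.05 to 1.16 with vehicle and 1.19 to 1.28 with TNFα (log2). At least 2-fold, 2279 and 2720 genes were called for TNFα in control and Notch2tm1.1Ecan cells, and 244 and 272 between genotypes with vehicle and TNFα, against 8542, 8745, 2048 and 1912 without this requirement. Members called between genotypes with vehicle were 2, but 1 at least 2-fold, 4 with a minimum of 1 count and 1 to 4 with a library left out. With TNFα they were 1, but 2 at an adjusted p under 0.1 and 1 to 2 with a library left out. For the interaction 101 genes were called, 266 with a minimum of 1 count, 206 by DESeq2 and 51 to 156 with a library left out. Its members called were 0, but 1 with a minimum of 1 count (Cd55), 0 to 1 with a library left out and 1 without control replicate 4 of both treatments (C3, at -0.88 against 0.63 with all libraries). The cause of these shifts was not tested.

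Direction changed for C3 with vehicle (0.090 with the replicate block, -0.90 to 0.89 with a library left out) and in the interaction (-0.87 to 0.92 with a library left out). With TNFα, genotype differences near 0 changed sign for C2 (-0.021 with the replicate block, -0.0017 in 1 fit of all libraries, -0.14 to 0.10 with a library left out), Cfb (-0.0059 with the replicate block, -0.080 to 0.065 with a library left out), C4b (-0.017 to 0.059) and C1ra (-0.018 to 0.043). Deviations of libraries with the same replicate number were at most weakly correlated (-0.20 to 0.16). This cannot show whether such libraries shared cultures or animals. The replicate block called 3 members between genotypes with vehicle, C1s1 (adjusted p = 0.0206) in addition. RLE moved no mean level by 1 SD. C2 and Cfb, with 4 to 25 counts in a vehicle library, are limited by depth.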
